A study of Mus musculus with 30 samples.

Results

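The response of wild-type (WT) mouse dendritic cells to 9 h of contact with the mould Aspergillus fumigatus was measured by comparing their RNA with that of the same kind of culture before challenge (0 h). The libraries were selected by genotype and time and are 6 of the 30 of the series, 3 collected at 9 h and 3 at 0 h, over 12393 genes. The cells were grown from bone marrow of wild-type animals for 6 days in medium with GM-CSF, which was exchanged on day 3; this growth factor turns marrow precursors into dendritic cells and macrophages. Wells held 500000 cells and received 500000 viable conidia (the airborne spores) of the strain AF29. The 0 h group carries no fungus, and no group of unchallenged cells kept for 9 h was analysed here, so time in culture and contact with the fungus cannot be told apart. Other libraries of the series serve for comparison: WT cells at 3, 6 and 12 h, and cells (KO) deficient in Nlrx1, a mitochondrial protein of the NOD-like receptor family, at 0 and 9 h.

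Several regulatory systems of myeloid cells have well-known transcript signatures. NRF2 is a transcription factor that is stabilised by electrophiles and oxidants and binds antioxidant response elements near genes for glutathione, thioredoxin and heme breakdown. SREBP2 is released from the endoplasmic reticulum when membrane sterol is low and drives genes of cholesterol synthesis and uptake through sterol regulatory elements, while NF-kappaB, released by pattern recognition receptors such as the beta-glucan receptor Dectin-1 (Clec7a), drives cytokines, chemokines and its own inhibitors. Myc binds E-boxes and drives the building of ribosomes and nucleolar proteins.

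Promoter sequences are shown for genes that rose or fell at 9 h, because the gene groups described below are defined by regulators with known binding letters. The 250 bases before each RefSeq gene start (GRCm38.p6) were searched on both strands for 3 motifs, with 8296 tested protein-coding genes having an entry and 1.29 starts searched per gene on average. The core letters of the antioxidant response element, TGACNNNGC, were found for 8 of 26 NRF2 targets with an entry (30.8%, against 14% of all 8296 genes). Among the matches was Mafg, whose change did not pass (edgeR adjusted p = 0.293). No match was found for Slc7a11, Cat, Gstm1, Blvrb, Pgd and Taldo1, which rose, and Hmox1 and Gclc had no entry. The promoters printed were taken from genes with a match. The E-box CACGTG was found for 1 of 29 genes of Myc and ribosome biogenesis (3.45%) and 4 of 16 genes of cholesterol synthesis and uptake (25%), against 10.3% of all genes. The canonical sterol regulatory element, searched in its form of 10 letters, was found for 0 of 16 cholesterol genes and 0.145% of all genes, which says only that these letters are not in this window. The motifs do not overlap each other in the stretches printed, and a match is a description of the letters, not of binding. Capitals mark the match in the stretches below, which are given 5′ to 3′ on the gene's strand and were cut where an annotated exon lay in the window. Distances are counted from the RefSeq start searched. For Txnrd1, which had 3 starts searched, that start lies inside the gene coordinates given below. For Prdx1 and Insig1 it differs from the start of those coordinates. The antioxidant response element is marked in Gclm (chr3:122245307-122245556, plus strand, match starting 134 bases before the RefSeq start), Txnrd1 (chr10:82859009-82859178, plus strand, 92 bases before) and Prdx1 (chr4:116685349-116685543, plus strand, 133 bases before). The E-box is marked in Insig1 (chr5:28071162-28071362, plus strand, 101 bases before) and Nop2 (chr6:125131633-125131882, plus strand, 60 bases before).
Gclm: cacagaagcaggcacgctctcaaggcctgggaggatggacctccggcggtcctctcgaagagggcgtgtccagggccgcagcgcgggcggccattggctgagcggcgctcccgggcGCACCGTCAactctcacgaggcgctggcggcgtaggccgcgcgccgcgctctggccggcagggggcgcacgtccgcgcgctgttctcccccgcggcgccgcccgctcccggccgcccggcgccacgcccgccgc
Txnrd1: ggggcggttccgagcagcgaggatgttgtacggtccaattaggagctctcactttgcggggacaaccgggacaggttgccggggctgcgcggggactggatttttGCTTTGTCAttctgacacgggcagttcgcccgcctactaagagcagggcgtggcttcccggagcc
Prdx1: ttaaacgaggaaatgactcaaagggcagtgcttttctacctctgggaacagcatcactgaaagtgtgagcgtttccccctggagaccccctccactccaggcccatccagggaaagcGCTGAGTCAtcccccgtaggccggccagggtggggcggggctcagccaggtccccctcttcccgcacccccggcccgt
Insig1: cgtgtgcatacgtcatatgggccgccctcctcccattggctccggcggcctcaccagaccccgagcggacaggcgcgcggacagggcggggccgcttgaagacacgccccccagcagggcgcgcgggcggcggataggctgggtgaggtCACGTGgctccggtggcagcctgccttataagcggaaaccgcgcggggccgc
Nop2: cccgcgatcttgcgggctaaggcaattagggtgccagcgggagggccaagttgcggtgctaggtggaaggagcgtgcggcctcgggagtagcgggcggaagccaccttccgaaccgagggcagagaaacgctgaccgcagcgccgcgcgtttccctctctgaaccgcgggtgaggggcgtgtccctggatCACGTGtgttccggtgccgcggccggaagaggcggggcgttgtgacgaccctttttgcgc

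Counts per library ran from 2498937 to 3163518 in these 6 libraries. Levels are given as counts relative to the scaled library total (CPM) with means ± SD over 3 libraries, and changes as fitted log2 differences ± standard error. Tests were edgeR's quasi-likelihood F tests, p-values were adjusted over all 12393 genes (Benjamini-Hochberg), and a gene is said to have risen or fallen where that value was under 0.05. Whether the libraries of a group stem from different animals or culture wells is not stated in the labels, so the p-values gauge nothing beyond the spread among these samples, and that spread may be technical. Nlrx1, the gene that separates the 2 genotypes of the series, stood at 13.4, 7.97 and 9.96 CPM at 0 h and at 12.7, 8.76 and 13.8 CPM at 9 h in WT cells, against group means of 1.94 and 2.22 CPM in KO cells. Of 12 defining markers of dendritic cells 10 were tested, among them the integrin Itgax (1272 ± 26.2 CPM at 0 h) and the invariant chain Cd74. Of these 10, 2 were lower at 9 h (20%, beside 4.81% of all genes tested) and 0 were higher. The summed level of the 10 was 3360 to 3538 CPM at 0 h and 3165 to 3219 CPM at 9 h. Flt3 and Cd209a, which mark conventional and monocyte-derived dendritic cells, were at or near 0. Macrophage markers (11 of 14 tested) were as abundant, so the cultures carried transcripts of both cell types. The macrophage markers summed to 3428 to 3606 CPM at 0 h and 2966 to 3064 CPM at 9 h. Of these 11, 5 were lower at 9 h (45.5%, beside 4.81% of all genes tested) and 0 were higher. Neutrophil markers (9 of 13 tested) summed to 1336 to 1378 CPM at 0 h and 1373 to 1513 CPM at 9 h. Of these 9, 3 were higher at 9 h (33.3%, beside 5.57% of all genes tested) and 0 were lower. No marker of B, T or NK, or erythroid cells passed the filter. In these bulk samples fewer cells of a type and less RNA per cell cannot be told apart, and the part of cell composition in the results was not tested.

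At 9 h, antioxidant, cholesterol synthesis and lysosomal genes made up more of the scaled counts of WT cells, and genes of Myc and ribosome biogenesis less. Cytokine genes changed in both directions, with more rises than falls. The transcripts of 1286 genes (10.4% of those tested) differed from 0 h, with 690 higher (5.57%) and 596 lower (4.81%). Most changes were small: 691 of the 1286 were under 1.5-fold, the median rise was 0.64 and the median fall -0.49 on the log2 scale, and 240 reached 2-fold, of which 177 were rises and 63 falls. The split between rises and falls depended on the filter on low counts: with no filter 743 genes passed, 530 higher and 213 lower, so that 71.3% were higher in place of 53.7%.

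**Figure D1:**
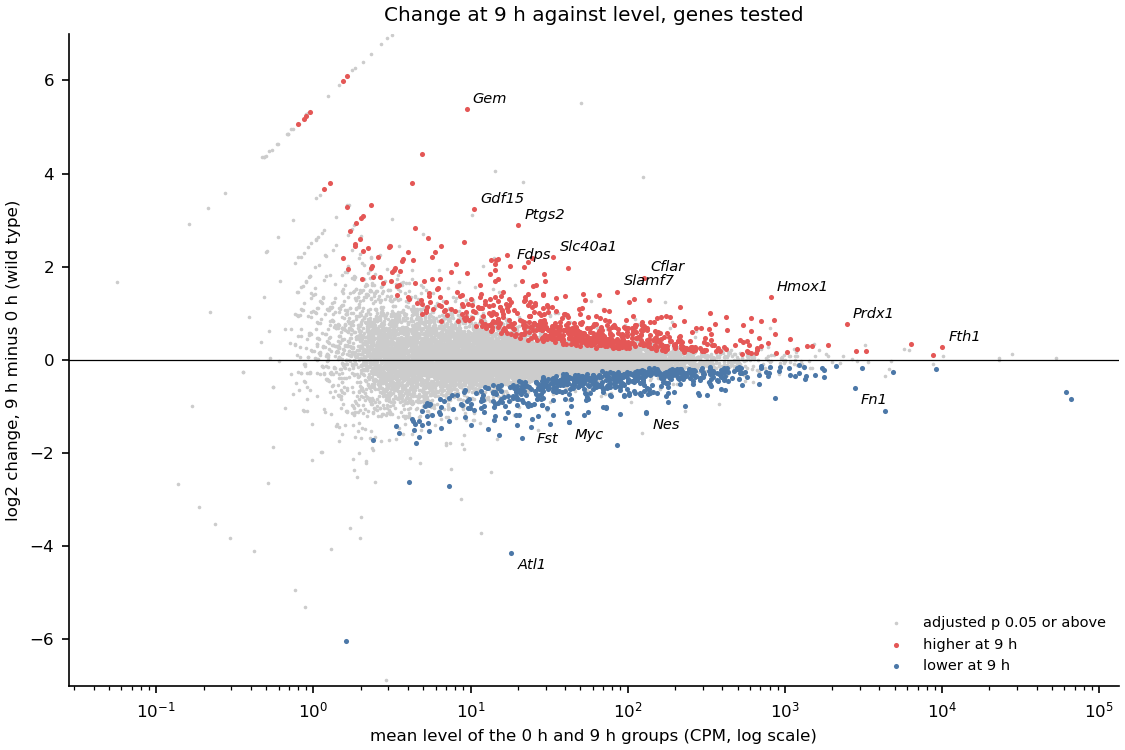
Fitted log2 change from 0 h to 9 h (vertical axis) against the mean of the 0 h and 9 h levels in CPM (horizontal log axis), 1 point per gene tested. Red points are the 690 rises and blue points the 596 falls with an adjusted p under 0.05. Gem, Gdf15 and Ptgs2 stand among the larger rises. Not drawn are 16 genes that lie beyond 7 log2 units or have a mean level of 0 in these groups.

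**Figure D2:**
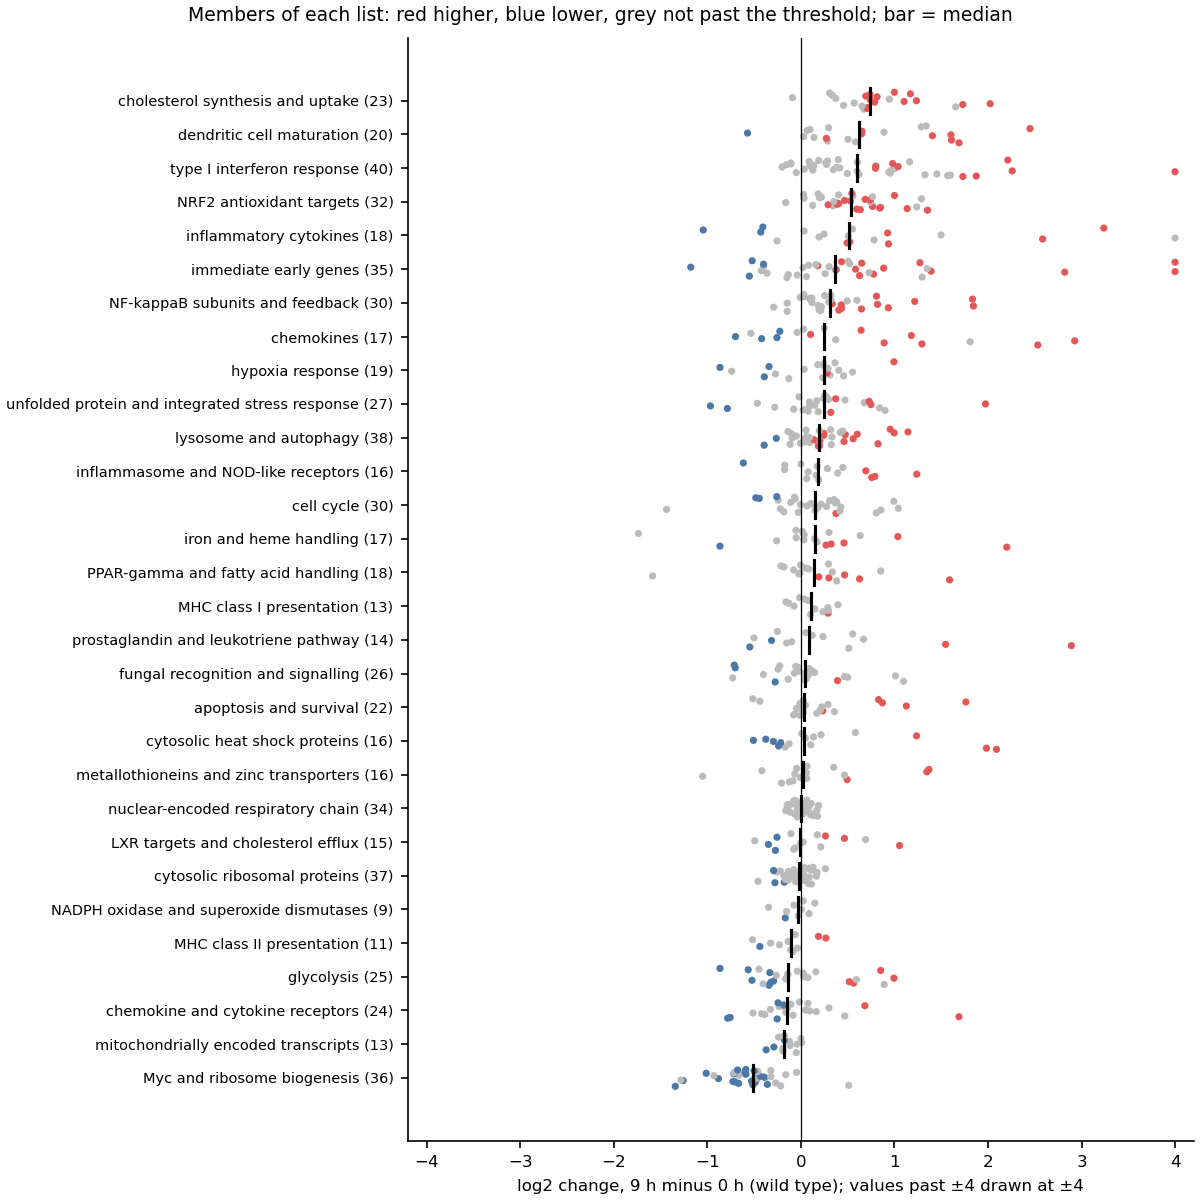
Fitted log2 change from 0 h to 9 h for each tested member of 30 gene lists, 1 row per list and 1 point per gene, with red for rises, blue for falls, grey for genes that did not pass and a bar at the list's median; values beyond 4 are drawn at the edge. The NRF2 target and cholesterol lists lie mostly to the right of 0, with medians of 0.54 and 0.74, and the list of Myc and ribosome biogenesis lies to the left, with a median of -0.51.

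Genes of antioxidant defence rose as a group. Of 32 tested NRF2 targets 17 rose and none fell, with a median change of 0.54 against 0.01 over all genes tested, and their summed level went from 7418 to 7458 CPM at 0 h to 11270 to 11930 CPM at 9 h. Hmox1 (chr8:75093621-75100589), which encodes heme oxygenase 1, the enzyme that opens the heme ring and frees its iron, stood at 450, 487 and 435 CPM at 0 h and at 1173, 1151 and 1182 CPM at 9 h. The 3 libraries at 9 h lay far above those at 0 h, with a log2 change of 1.35 ± 0.06 (edgeR adjusted p = 1.28e-14). Thioredoxin reductase 1 (Txnrd1, chr10:82833951-82897712), which keeps thioredoxin reduced, stood at 630, 605 and 586 CPM before and at 1108, 1091 and 1088 CPM after challenge, without overlap (0.85 ± 0.04, edgeR adjusted p = 1.84e-13). Slc7a11 (chr3:49892526-50443614), the cystine importer that feeds glutathione synthesis, went from 516, 498 and 496 CPM to 914, 877 and 916 CPM, also without overlap (0.84 ± 0.03, edgeR adjusted p = 2.8e-15).

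The peroxidase Prdx1 (chr4:116685544-116700822) stood at 1796, 1902 and 1794 CPM at 0 h and at 3055, 3144 and 3136 CPM at 9 h, again with no overlap (0.77 ± 0.13, edgeR adjusted p = 0.000336). Enzymes of glutathione and of NADPH supply also rose: the catalytic subunit of glutamate-cysteine ligase Gclc by 0.60, catalase Cat by 0.74, the glutathione transferase Gstm1 by 0.69, and the pentose phosphate enzymes Pgd, Taldo1 and G6pdx by 0.40, 0.39 and 0.39. Gclm (chr3:122245557-122270732), the modifier subunit of the same ligase, stood at 73.8, 170 and 164 CPM at 0 h and at 309, 261 and 322 CPM at 9 h, so that the groups did not overlap but the 0 h libraries differed among themselves (1.14 ± 0.29, edgeR adjusted p = 0.0126). Without replicate 1 of 0 h the adjusted p for Gclm was 0.0731. Bach1, a repressor of Hmox1 that competes at the same elements, rose by 0.54, and the biliverdin reductase Blvrb by 0.53.

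Transcripts for iron export and iron import changed in opposite directions. Slc40a1 (chr1:45908068-45926523), which encodes ferroportin, the sole known iron exporter, stood at 14.5, 10.1 and 11.2 CPM at 0 h and at 52.0, 56.8 and 57.4 CPM at 9 h. All 9 h libraries were above all 0 h libraries (2.20 ± 0.17, edgeR adjusted p = 5.42e-10). The transferrin receptor Tfrc (chr16:32608920-32632794), which brings iron into cells, went the other way, from 69.2, 72.6 and 68.9 CPM to 35.9, 39.3 and 40.3 CPM, with no overlap (-0.87 ± 0.12, edgeR adjusted p = 7.8e-06). The ferritin chains Fth1 and Ftl1, which store iron, rose by 0.27 and 0.32, and the mitochondrial iron importer Slc25a37 by 1.04. In all, 5 of 17 tested iron and heme genes rose (29.4%, beside 5.57% of all genes tested) and 1 fell (5.88%, beside 4.81%). Among 16 zinc genes 3 rose (18.8%, beside 5.57% of all genes tested), including the zinc importer Slc39a2 (1.35), and 1 rose without replicate 3 of 0 h. The metallothioneins Mt1 (-0.21, adjusted p 0.0738 by edgeR) and Mt2 (-0.12) did not pass.

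**Figure D3:**
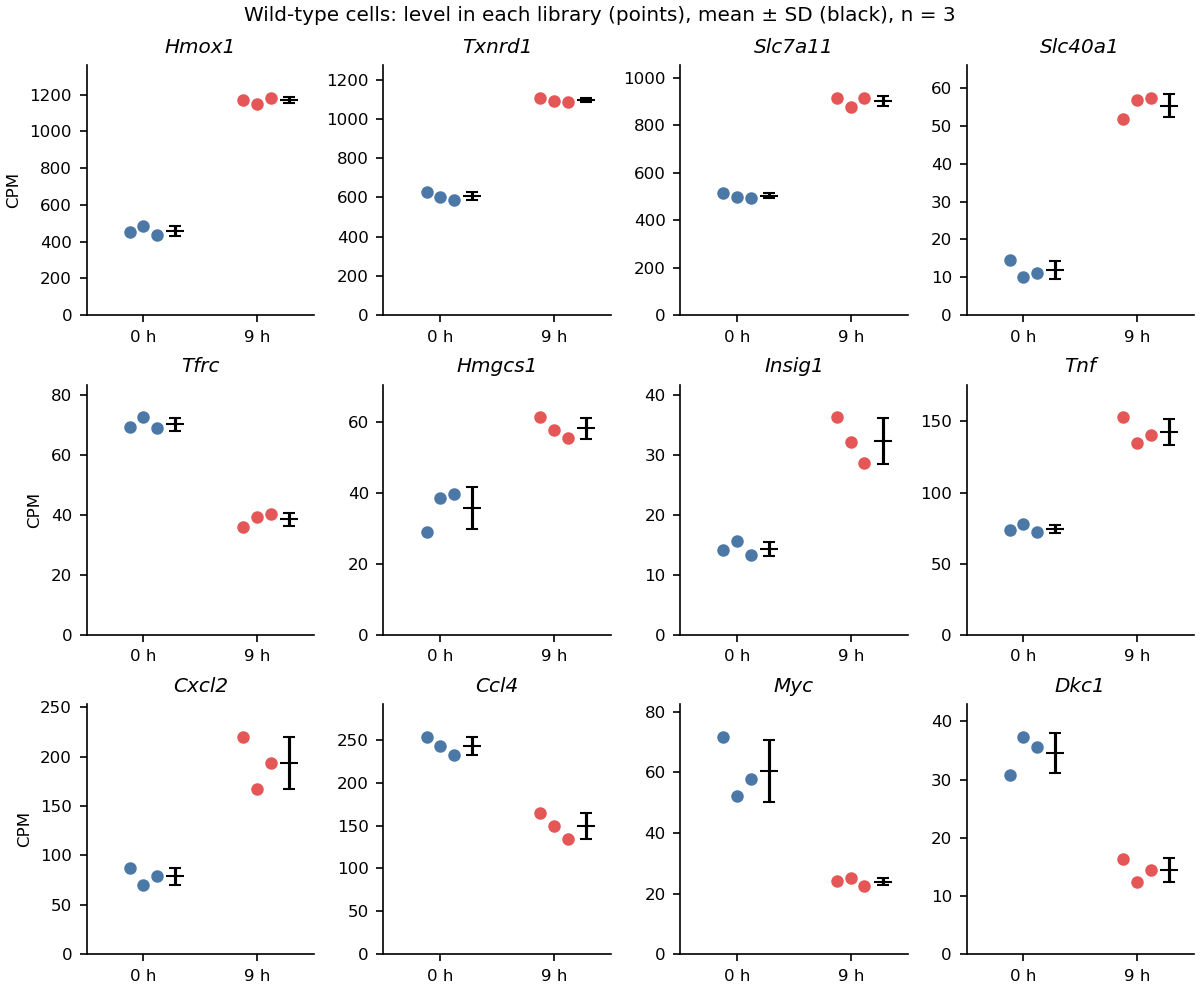
Levels in CPM of 12 genes in each of the 3 libraries at 0 h and 3 at 9 h, with 1 panel per gene, an axis from 0 in each panel, coloured points for libraries and black marks for mean ± SD. Hmox1 goes from a mean of 457 to 1169 CPM, and Tfrc, Ccl4, Myc and Dkc1 are the genes that fell; no panel has overlapping groups.

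Genes of cholesterol synthesis and uptake rose together, with 13 of 23 tested higher and none lower. Their median change was 0.74, and the sum of their levels went from 523.2 to 539.2 CPM at 0 h to 850.1 to 867.9 CPM at 9 h. Hmgcs1 (chr13:119690379-119708260), which makes the building block of the mevalonate pathway, stood at 29.0, 38.6 and 39.8 CPM at 0 h and at 61.4, 57.8 and 55.6 CPM at 9 h. These groups did not overlap (0.71 ± 0.15, edgeR adjusted p = 0.00178). Insig1 (chr5:28071363-28078662), which holds SREBP2 in the endoplasmic reticulum and is itself a target, went from 14.1, 15.5 and 13.3 CPM to 36.2, 32.1 and 28.6 CPM (1.17 ± 0.17, edgeR adjusted p = 1.79e-05), also without overlap.

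Other steps of the pathway also rose: the isomerase Idi1 by 1.73, squalene epoxidase Sqle by 0.79, the lanosterol demethylase Cyp51 by 1.23, and the later sterol enzymes Msmo1 and Sc5d by 0.74 and 0.81. Fdps, which makes farnesyl diphosphate, rose from 5.30, 13.0 and 2.90 CPM to 25.8, 28.6 and 31.3 CPM without overlap (2.02 ± 0.41, edgeR adjusted p = 0.00154); it shares sequence span with the annotated gene Gm43738 on GRCm38, so reads of the pair may be split between them. Stard4, which carries cholesterol between membranes, rose by 1.00. Targets of the oxysterol receptor LXR had no common direction, with 3 of 15 higher and 3 lower (1 lower without replicate 3 of 9 h or replicate 2 of 0 h): Mylip, a ubiquitin ligase, rose by 1.05, and the desaturase Scd2 by 0.47. The efflux pump Abca1 (-0.27) and the apolipoprotein Apoe (-0.35) fell, and both calls were lost without a filter on low counts (adjusted p 0.549 for Abca1) and without single libraries, the highest adjusted p then being 0.165 for Abca1 and 0.0596 for Apoe by edgeR. The fatty acid carrier Fabp4 went from 14.5, 10.9 and 11.6 CPM to 38.2, 40.2 and 34.0 CPM, with no overlap (1.59 ± 0.17, edgeR adjusted p = 1.1e-07), and its relative Fabp5 rose by 0.63.

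Inflammatory cytokines and chemokines rose in part. Of 18 tested cytokine genes 6 rose and 3 fell, with a median of 0.51, and of 17 chemokine genes 7 rose and 4 fell, with a median of 0.25. The chemokine median was 0.13 without replicate 2 of 9 h, 0.11 with a stricter filter on low counts (a minimum of 30 in place of 10) and 0.11 in the fit of the 6 libraries alone. With no filter on low counts the falls numbered 1 and 2, and 1 cytokine fell without replicate 2 of 9 h. Tnf (chr17:35199381-35202007), a central cytokine of inflammation, stood at 73.8, 77.6 and 72.2 CPM at 0 h and at 153, 135 and 140 CPM at 9 h. Each 9 h library was above each 0 h library (0.94 ± 0.11, edgeR adjusted p = 4.28e-07). The neutrophil attractants Cxcl2 (chr5:90903871-90905938) and Cxcl1 behaved in the same direction: Cxcl2 went from 87.6, 70.1 and 79.2 CPM to 220, 168 and 194 CPM (1.29 ± 0.11, edgeR adjusted p = 4.84e-09). Cxcl1 was low, at 1.77, 2.10 and 4.15 CPM before and 13.4, 18.8 and 14.1 CPM after (2.53 ± 0.30, edgeR adjusted p = 8.28e-07). Neither gene's groups overlapped, and Cxcl3 rose by 0.89.

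The interleukin 1 genes Il1b and Il1a changed by less than Tnf (0.94) at this time. Il1b stood at 26.5, 28.9 and 22.4 CPM at 0 h and at 40.2, 34.7 and 37.0 CPM at 9 h (0.52 ± 0.11, edgeR adjusted p = 0.00175), and Il1a was up by 0.49. The activin subunit Inhba went from 297, 281 and 291 CPM to 614, 526 and 514 CPM without overlap (0.93 ± 0.08). Gdf15, a stress-induced cytokine of the same superfamily, went from 1.77, 2.94 and 1.25 CPM to 17.4, 17.2 and 22.2 CPM (3.24 ± 0.36, edgeR adjusted p = 3.02e-07), so that even the lowest 9 h library was well above 0 h. Other chemokines fell: Ccl4, which attracts monocytes and lymphocytes, stood at 254, 242 and 232 CPM at 0 h and at 165, 150 and 134 CPM at 9 h, with no overlap (-0.70 ± 0.09, edgeR adjusted p = 3.1e-06). The monocyte attractant Ccl2 fell by 0.42 on the log2 scale and the cytokine Tgfb1 by 0.43. Of 24 receptor genes 5 fell and 2 rose, with 3 falls without replicate 2 of either time and 1 with no filter. The TNF receptor Tnfrsf1b rose by 0.68.

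Prostaglandin synthesis changed in its first enzymes. Ptgs2 (chr1:150100031-150108227), the inducible cyclooxygenase, stood at 4.94, 1.26 and 7.88 CPM at 0 h and at 40.9, 33.1 and 32.2 CPM at 9 h, with no overlap (2.89 ± 0.30, edgeR adjusted p = 1.76e-07). Ptges, which turns its product into prostaglandin E2, rose by 1.55, while the constitutive cyclooxygenase Ptgs1 went from 140, 152 and 161 CPM to 104, 106 and 100.2 CPM, again without overlap (-0.55 ± 0.08). These were among 14 tested genes of prostaglandin and leukotriene synthesis, of which 2 rose and 2 fell.

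Feedback genes of NF-kappaB rose, with 11 of 30 higher and none lower (median 0.31). Among them were the atypical inhibitor Nfkbiz (1.84), the adaptor Traf1 (1.22), the ubiquitin-editing enzyme Tnfaip3 (0.82), the inhibitor Nfkbia (0.43) and the subunits Relb (0.65) and Rel (0.41). Gadd45b, an inhibitor of stress kinase signalling, went from 15.9, 12.2 and 9.96 CPM to 50.3, 42.2 and 44.8 CPM, with no overlap (1.83 ± 0.19). Immediate early genes, which are switched on by signals without new protein synthesis, split into 13 of 35 higher and 4 lower, 2 of these in the fit of the 6 libraries alone. The GTPase Gem had 3 counts over the 3 libraries at 0 h and 173 over those at 9 h, a ratio of 46.8 (95% counting interval 15.8 to 229), with an edgeR adjusted p of 7.71e-10. The orphan nuclear receptor Nr4a3 rose by 1.39, Jun by 0.63, Atf3 by 0.78 and the phosphatase Dusp1 by 0.58, whereas Fosl2 fell by 0.55 on the log2 scale.

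Type I interferon response genes were mostly above 0 in change, but how many passed varied with the libraries and the filter. Of 40 tested, 9 rose and none fell (median 0.60). Leaving out 1 library gave from 3 rises (without replicate 2 of 9 h) to 8 (without replicate 3 of 9 h), with 5 without replicate 2 or replicate 3 of 0 h. With no filter on low counts 4 rose, and in the fit of the 6 libraries alone 12 rose. The antiviral enzyme Rsad2 stood at 3.88, 8.81 and 4.98 CPM at 0 h and at 21.1, 46.4 and 16.5 CPM at 9 h, so that replicate 2 was the highest at both times (2.26 ± 0.57, edgeR adjusted p = 0.0108). Without single libraries the highest adjusted p for Rsad2 was 0.0842. Oasl1, a relative of the 2′-5′ oligoadenylate synthetases, had 0 counts over the 0 h libraries and 31 over the 9 h libraries, at least 8.39-fold higher when 3 counts are taken as the floor of the 0 h group. Ifi203 rose by 1.04, and its call held with each library left out.

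Receptors that recognise fungi did not rise as a group. Of 26 tested genes of recognition and signalling 1 rose (3.85%, beside 5.57% of all genes tested) and 3 fell (11.5%, beside 4.81%). The beta-glucan receptor Clec7a went from 1319, 1368 and 1380 CPM to 1143, 1107 and 1111 CPM, without overlap (-0.28 ± 0.05, edgeR adjusted p = 0.000172). Pentraxin 3 (Ptx3), a soluble protein that binds conidia, went from 234, 230 and 208 CPM to 160, 135 and 118 CPM, also without overlap (-0.70 ± 0.09), and the complement C5a receptor C5ar1 fell by 0.71 on the log2 scale. The C-type lectin Clec4d rose by 0.39, a call lost without replicate 3 of 0 h (edgeR adjusted p = 0.076), and without replicate 1 of 9 h 2 of the 26 rose. Clec4e, a further C-type lectin of the list, had a larger fitted change of 1.10 that did not pass (edgeR adjusted p = 0.125). The authors' deposited table of this comparison lists Clec4e as higher at 9 h, by 1.10 on the log2 scale. Among 16 inflammasome and NOD-like receptor genes 4 rose (25%, beside 5.57% of all genes tested) and 1 fell (6.25%, beside 4.81%). Without replicate 1 or 3 of 9 h or replicate 3 of 0 h 2 rose and 0 fell, as with no filter on low counts, and 0 also fell without replicate 2 of 9 h or in the fit of the 6 libraries alone. The rises included Nlrc5 (0.79), a regulator of class I presentation genes, and Naip2 (0.69), a sensor of bacterial secretion systems.

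Lysosomal and autophagy genes rose more often than they fell, 15 against 2 of 38 tested (median 0.19), with no fall where no filter was set. Sqstm1, which encodes the autophagy receptor p62 and is also an NRF2 target, stood at 215, 217 and 236 CPM at 0 h and at 455, 431 and 447 CPM at 9 h, with no overlap (1.00 ± 0.09, edgeR adjusted p = 1.42e-08). A further autophagy receptor, Optn, rose by 1.14. The acid lipase Lipa, which frees cholesterol from its esters in lysosomes, went from 654, 728 and 707 CPM to 1016, 1026 and 1035 CPM (0.56), the proton pump subunits Atp6v0d2 and Atp6v1a rose by 0.47 and 0.60, and the protease Ctsk by 0.82.

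Genes of dendritic cell maturation rose in 8 of 20 cases (40%, beside 5.57% of all genes tested). Only 1 fell (5%, beside 4.81%), and none without replicate 3 of 0 h. Their median was 0.62, 0.30 with a stricter filter on low counts and 0.40 in the fit of the 6 libraries alone. Ccr7, the receptor that guides mature cells to lymph nodes, stood at 12.4, 10.9 and 6.64 CPM at 0 h and at 27.5, 37.6 and 32.5 CPM at 9 h, with no overlap (1.69 ± 0.24, edgeR adjusted p = 1.26e-05). Cd83, a surface marker of maturation, rose by 1.61, the actin bundler Fscn1 by 1.41 and the calcium channel subunit Cacnb3 by 1.60. Of 11 class II presentation genes 2 rose (18.2%) and 1 fell (9.09%), 1 and 0 without replicate 3 of 0 h, with H2-Aa at -0.09 (edgeR adjusted p = 0.492). Of 13 class I genes 1 (7.69%, beside 5.57% of all genes tested), H2-D1, rose by 0.29, and 3 rose in the fit of the 6 libraries alone.

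Stress genes changed in both directions. The heat shock protein Hspa1a went from 10.9, 7.97 and 7.47 CPM to 35.2, 35.4 and 43.3 CPM (2.09 ± 0.14, edgeR adjusted p = 1.31e-10), and its near-identical copy Hspa1b changed by 1.98, so that reads of the pair may be split between them. The mitochondrial chaperone Hspd1 instead went from 204, 209 and 200.4 CPM to 150, 148 and 134 CPM without overlap (-0.51). Of 16 tested heat shock genes 3 rose (18.8%, beside 5.57% of all genes tested) and 5 fell (31.2%, beside 4.81%), with 1 fall where no filter on low counts was set. Of 27 genes of the unfolded protein and integrated stress responses 5 rose (18.5%) and 2 fell (7.41%). Ppp1r15a, which reverses the block on translation, went from 16.9, 14.3 and 19.5 CPM to 64.7, 69.4 and 65.5 CPM (1.97 ± 0.47, edgeR adjusted p = 0.00705), while the amino acid genes Psat1 and Slc7a5 changed by -0.79 and -0.97. Cflar, which blocks caspase 8, went from 66.0, 61.7 and 45.2 CPM to 181, 198 and 210 CPM, with no overlap (1.76 ± 0.28, edgeR adjusted p = 0.000137), as 1 of 5 rises among 22 survival and death genes.

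Glycolysis genes split, with 4 of 25 higher and 7 lower, 3 lower with no filter on low counts. The regulator Pfkfb3, whose product activates phosphofructokinase, rose by 0.99 and the hexokinases Hk1 and Hk3 by 0.56 and 0.52. Pdk1, a kinase that inhibits pyruvate dehydrogenase, changed by -0.87, the phosphofructokinase Pfkl by -0.52 and the glucose transporter Slc2a1 by -0.34. Of 34 nuclear-encoded respiratory chain genes 0 passed in edgeR's test, 0 at an unadjusted p under 0.05 and 0 in DESeq2, and their median was 0.00.

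Genes of the list of Myc and ribosome biogenesis, which holds Myc and Odc1 beside genes that build ribosomes, fell as a group. They are called genes of ribosome biogenesis below. Of 36 tested, 22 were lower and none higher (median -0.51), and in the fit of the 6 libraries alone 19 were lower and 1 higher. Their summed level went from 3149 to 3311 CPM at 0 h to 2199 to 2270 CPM at 9 h. Myc (chr15:61985391-61990374) stood at 71.7, 52.0 and 57.7 CPM at 0 h and at 24.1, 25 and 22.6 CPM at 9 h. All 9 h libraries lay under all 0 h libraries (-1.34 ± 0.16, edgeR adjusted p = 7.78e-07). Dkc1 (chrX:75095854-75109777), which modifies ribosomal RNA, went from 30.7, 37.3 and 35.7 CPM to 16.4, 12.3 and 14.4 CPM, and the large subunit of RNA polymerase I Polr1a from 86.9, 94.8 and 97.1 CPM to 39.9, 54.2 and 43.9 CPM. Neither overlapped, with changes of -1.26 ± 0.19 and -1.01 ± 0.14 (edgeR adjusted p = 3.99e-05 and 1.64e-05).

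The abundant nucleolar proteins fell by less and with little spread. Nucleolin (Ncl) went from 763, 859 and 778 CPM to 559, 576 and 546 CPM, with no overlap (-0.51 ± 0.04, edgeR adjusted p = 5.81e-09). Nucleophosmin (Npm1) went from 394, 402 and 379 CPM to 276, 278 and 272 CPM, also without overlap (-0.51 ± 0.05, edgeR adjusted p = 1.61e-08). The box C/D proteins Nop56 and Nop58 changed by -0.70 and -0.73, the processing factors Rrp9 and Heatr1 by -0.88 and -0.72, and ornithine decarboxylase Odc1, a classic Myc target, by -0.59. Of 37 genes for the ribosomal proteins themselves 3 were lower (8.11%, beside 4.81% of all genes tested). With no filter on low counts 0 were lower, and 1 was without replicate 3 of 9 h, replicate 1 of 0 h or replicate 2 of 0 h.

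Outside these lists, the rises with the smallest adjusted p included Slamf7, a surface receptor of the SLAM family, which went from 44.5, 45.7 and 46.9 CPM to 129, 124 and 124 CPM (1.46 ± 0.07, edgeR adjusted p = 1.04e-13). Acod1, whose enzyme makes itaconate, went from 62.5, 58.7 and 69.7 CPM to 172, 154 and 145 CPM (1.30 ± 0.10), and neither gene's groups overlapped. Nampt, which makes NAD, rose by 0.93 and the kinase Sgk1 by 1.24. The larger rises by size were of low genes, among them the deiodinase Dio2 (2.15), the retinoic acid hydroxylase Cyp26b1 (2.14), the poly(A) polymerase Tent5c (2.19) and the phospholipase Pla2g6 (2.44).

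Further genes outside the lists, named by size, p or level, fell. E-cadherin (Cdh1) went from 72.4, 73.8 and 73.4 CPM to 33.9, 33.4 and 30.1 CPM, with no overlap (-1.17 ± 0.12, edgeR adjusted p = 7.09e-08). Fibronectin (Fn1) went from 3095, 3480 and 3461 CPM to 2205, 2138 and 2291 CPM, also without overlap (-0.60 ± 0.09, edgeR adjusted p = 3.9e-05). The proteoglycan versican (Vcan) changed by -1.04, the intermediate filament nestin (Nes) by -1.12, tissue factor (F3), which starts coagulation, by -1.12, and the activin antagonist follistatin (Fst), which binds the product of Inhba, by -1.43. The scavenger receptor Msr1 and the collagenase Mmp13 changed by -0.54 and -0.56.

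The share of counts from the ribosomal RNA locus of chromosome 17 was lower at 9 h in WT cells. This locus took 15.66 ± 1.19% of counts at 0 h and 12.4, 10.0 and 6.84% in the 9 h libraries (9.76 ± 2.80%), whereas it took 11.40% and 11.45% in KO cells at 0 h and 9 h. Protein-coding genes held 65.09% and 69.85% of WT counts at these times, and small RNA genes 5.82% and 6.15%. Mir6236, an abundant entry annotated as a miRNA gene, went from 5031, 7132 and 5586 CPM to 4000, 2704 and 1636 CPM without overlap (-1.09). Its call was lost in the fit of the 6 libraries alone (edgeR adjusted p = 0.188), as were those of AY036118 and CT010467.1 in the ribosomal RNA locus (edgeR adjusted p = 0.201 and 0.198). Of 129 small nucleolar RNA genes 17 fell in WT (13.2%, beside 4.81% of all genes tested) against 1 in KO (0.775%, beside 5%), of 28 miRNA genes 6 (21.4%) against 0, and of 51 small nuclear RNA genes 2 (3.92%) against 0. The difference between genotypes in these counts was not tested. These libraries were made with a kit for polyadenylated RNA, and the part of RNA makeup in the other results was not tested.

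Against 6 h the 9 h cells differed in 168 genes (1.36%), 65 higher (0.524%) and 103 lower (0.831%), and with only protein-coding genes fitted in 55, of which 37 were higher and 18 lower. Comparisons against 0 h share the 0 h libraries, and those against 9 h share the 9 h libraries with the comparison above, so their values are set side by side and not correlated. In counts of genes, 126 (1.02%) differed from 0 h at 3 h, 739 (5.96%) at 6 h, 1286 at 9 h and 2245 (18.1%) at 12 h. Cholesterol genes had reached their level by 6 h (median change from 0 h of 0.09 at 3 h, 0.71 at 6 h and 0.74 at 9 h), and 0 of 23 differed between 6 and 9 h in edgeR, at an unadjusted p under 0.05 or in DESeq2. Ribosome biogenesis had the same order, with medians of -0.15, -0.51 and -0.51, and 0 of 36 differed between 6 and 9 h in edgeR or DESeq2, with 5 at an unadjusted p under 0.05. NRF2 targets went on rising, with medians of 0.07, 0.28 and 0.54, and 6 of 32 were higher at 9 than at 6 h.

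From 9 to 12 h, 1305 genes differed (10.5%), 640 higher (5.16%) and 665 lower (5.37%), and with no filter on low counts 832, of which 285 were higher and 547 lower. The antioxidant and sterol rises receded: 20 of 32 NRF2 targets and 11 of 23 cholesterol genes fell, and their medians against 0 h at 12 h were -0.00 and 0.02. Hmox1 went from a mean of 748 CPM at 3 h and 958 CPM at 6 h to 1169 CPM at 9 h and 641 CPM at 12 h, Slc40a1 through 22.8, 51.9, 55.4 and 14.2 CPM at the same times, and Hmgcs1 through 32.5, 58.2, 58.2 and 38.3 CPM. Slc7a11 stayed high, at 902 CPM at 9 h and 824 CPM at 12 h. Ribosome biogenesis genes stayed low, with a median of -0.52 at 12 h and Myc at 25.4 CPM.

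Cytokine and immediate early genes rose from 9 to 12 h, 10 of 18 and 24 of 35 higher and none lower. Tnf held means of 75.2, 83.7 and 143 CPM at 3, 6 and 9 h and 623 CPM at 12 h, Cxcl2 134, 143, 194 and 597 CPM, and Ptgs2 reached 201 CPM at 12 h. Il1a reached 501 CPM, Il1b 184 CPM and Inhba 2235 CPM at 12 h. Several genes that were low at 9 h were above their 0 h mean at 12 h, including Ptx3 (224 to 138 to 346 CPM at 0, 9 and 12 h), Ccl4 (243 to 150 to 281 CPM) and F3 (76.0 to 35.0 to 119 CPM). Ccr7 had already reached 35.2 CPM at 3 h and changed little afterwards, to 39.5, 32.5 and 47.7 CPM. Small RNA genes took 6.15 ± 0.52% of counts at 9 h and 3.92 ± 0.09% at 12 h, and all 13 mitochondrially encoded genes were higher at 12 h than at 9 h, so RNA makeup moved with this step and its part was not tested.

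**Figure D4:**
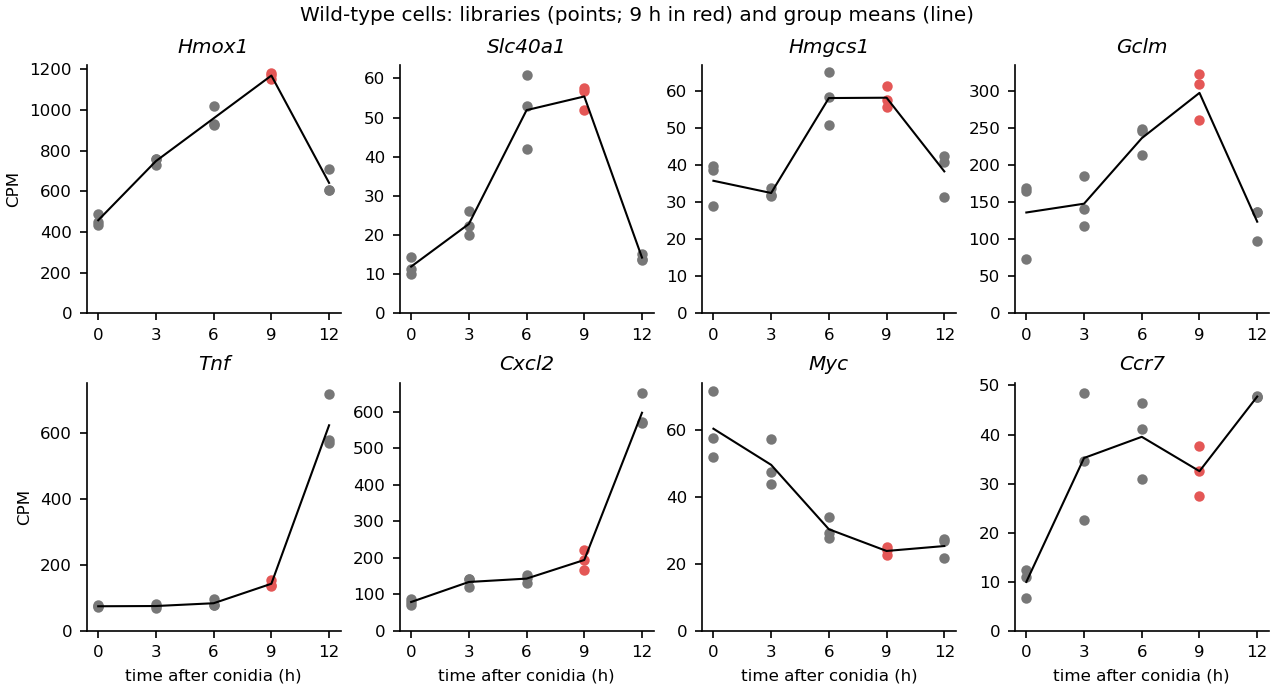
Levels in CPM of 8 genes in WT cells at 0, 3, 6, 9 and 12 h (horizontal axis, hours after challenge), with a point per library and a line through the means of 3. Hmox1, Slc40a1 and Gclm have their highest mean at 9 h, with that of Slc40a1 only a little above its mean at 6 h. Hmgcs1 stands at 58.2 CPM at 6 h and 9 h, and Tnf and Cxcl2 are highest at 12 h with means of 623 and 597 CPM. Myc falls to 23.9 CPM at 9 h and Ccr7 is near its later level by 3 h.

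The same interval in KO cells rests on 6 other libraries and gave 1346 changed genes (10.9%), 726 higher (5.86%) and 620 lower (5%). Of the 690 genes that rose in WT cells 660 (95.7%) also had a positive change in KO cells and 425 (61.6%) rose there, and of the 596 that fell 554 (93%) had a negative change and 326 (54.7%) fell. Over all 12393 genes 67.8% had the same sign in both genotypes, and the log2 changes correlated at a Pearson r of 0.325 and a Spearman rho of 0.456, across genes, which are not independent replicates. The groups followed the same directions in KO: 14 NRF2 targets and 11 cholesterol genes rose and none fell, and 23 genes of ribosome biogenesis fell and 1 rose. Hmox1 changed by 1.60 in KO against 1.35 in WT cells, Slc40a1 by 2.05 against 2.20, Hmgcs1 by 0.54 against 0.71, and Myc by -0.94 against -1.34. Of 40 interferon genes 0 passed in KO cells in edgeR (14 at an unadjusted p under 0.05 and 1 in DESeq2) against 9 in WT cells, with medians of 0.46 and 0.60. The difference between genotypes in their change passed for 0 of 40 in edgeR and DESeq2 (1 at an unadjusted p under 0.05).

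The change from 0 to 9 h itself differed between genotypes in 13 genes (0.105% of those tested), 11 with a higher (0.0888%) and 2 with a lower (0.0161%) change in KO cells, against 805 genes at an unadjusted p under 0.05. Tnf was among them, with a change of 1.67 in KO and 0.94 in WT cells (difference 0.73, edgeR adjusted p = 0.0446). Egr1, an immediate early transcription factor, changed by 1.46 in KO and 0.26 in WT cells (difference 1.20, edgeR adjusted p = 0.000182), and the metallothionein Mt1 by 0.50 and -0.21 (difference 0.71, edgeR adjusted p = 0.00172). Leaving out single libraries gave 3 to 25 such genes. Small RNA genes took 3.42% of KO counts at both times and 5.82% and 6.15% of WT counts, so that library makeup differed between genotypes beside these values and its part was not tested.

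**Figure D5:**
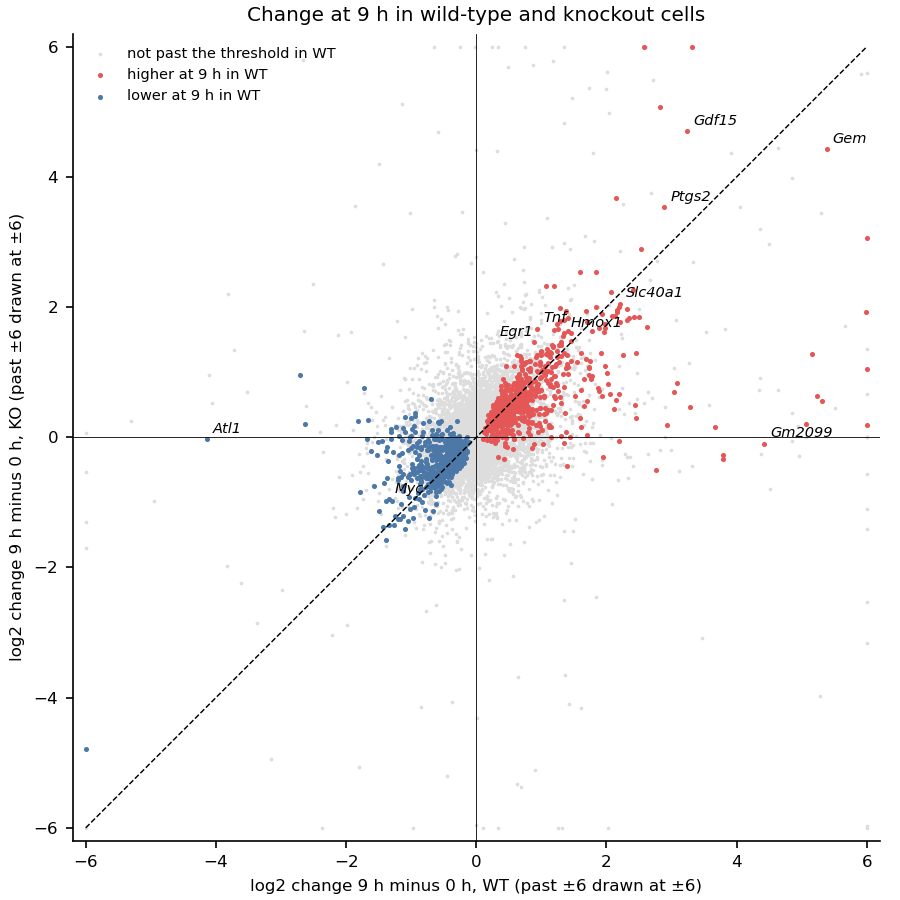
Fitted log2 change from 0 h to 9 h in WT cells (horizontal axis) against the same change in KO cells (vertical axis), 1 point per gene tested, with red for WT rises, blue for WT falls, a dashed line of equal change and values beyond 6 drawn at the edge. Of the 690 WT rises 660 lie above the horizontal zero line and of the 596 falls 554 lie below it, and Egr1 and Tnf lie above the dashed line.

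The authors' deposited table for WT 9 h against 0 h lists 370 genes, 236 higher and 134 lower, with an adjusted p of at most 0.0492. It holds no change under 0.508 on the log2 scale in either direction, whereas the 1286 genes have no such limit and 718 of them reach it. Of these 370, 369 were tested here and 344 passed in the same direction, which is 93% of the list in the authors' deposited table and 26.7% of the 1286 genes above. For Hmox1 the authors' deposited table gives a log2 change of 1.35 and for Gdf15 3.26, beside fitted values of 1.35 and 3.24 here. Its entry for Gm15564 (-14.13) rests on counts of 0, 3999 and 3529 at 0 h and 0 in each library at 9 h, a gene chosen here after its values were seen, which did not pass in edgeR's test (adjusted p = 0.175).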

How the data were processed

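RNA from mouse marrow cultures was sequenced after polyadenylated RNA selection with a stranded kit (RNA integrity of at least 8, 13 PCR cycles), per the labels' protocols. The gene counts deposited by the authors are whole numbers with a different total in each library, and were taken as raw. Trimmomatic 0.35, HISAT2, StringTie and DESeq2 with the build GRCm38 are named per the submitters' processing notes, and on the counting, the strand setting and the annotation release nothing is given in the sources used here. In the authors' deposited table of the comparison, log2 fold changes and adjusted p-values are those of the authors, per the file headers. Per-sample values in tables of this kind (78 columns) were not used.

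Names and coordinates came from GENCODE M21, which held 54495 of the 54532 gene IDs and lacked 37. The 30 libraries had totals that ran from 1722384 to 3509429 with a median of 2492886. A filter on low counts (filterByExpr, minimum count 10) kept 12393 genes with 98.66% of the counts. After TMM scaling, the 10 groups were fitted jointly over the 30 libraries in edgeR 4.0.16 under R 4.3.3, by robust quasi-likelihood with residual and prior degrees of freedom of 20 and 6.03 and a common dispersion of 0.01863. Two-sided p-values were adjusted after Benjamini and Hochberg across the kept genes, and 0.05 was the threshold. CPM are counts over TMM-scaled totals. The scripts were tested on simulated data. Reads carry no molecular identifiers and are not independent molecules, so intervals (95%) and the floor of 3 counts over a group cover counting error alone.

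The comparison, the 30 gene lists and the 12 marker lists were chosen with earlier results of these data known. Named genes were members of these lists, the 20 largest rises and falls without overlap whose higher group averaged 10 CPM or more, the 15 of each with the smallest adjusted p, the 10 of each with the highest level among changes of at least 0.5, and genes that differed between genotypes. Alternatives were DESeq2 1.42.0, its size factors, no filter, a minimum count of 30, protein-coding genes only, only the libraries compared, the replicate block and leaving out each library. Some items of these lists are not reported here.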

Additional observations from a re-analysis of the deposited data

Results flagged for a closer look

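In 13 genes the change from 0 h to 9 h differed between KO and WT cells in edgeR's quasi-likelihood test of that difference (Benjamini-Hochberg adjustment over 12393 genes). Values are the KO change minus the WT change on the log2 scale, from 3 libraries in each of the 4 groups. The immediate early factor Egr1 differed by 1.20 (adjusted p = 0.000182), with a change of 0.26 in WT cells. The metallothionein Mt1 differed by 0.71 (adjusted p = 0.00172), and the cytokine Tnf, which rose in WT cells by 0.94, by 0.73 (adjusted p = 0.0446). The kinase Plk2 differed by 0.39 (adjusted p = 0.00557) and rose in WT cells by 0.43, and Fnip2, a partner of folliculin, differed by 0.53 (adjusted p = 0.0398) and rose in WT cells by 0.69.

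The kinase Cdk18 differed by 0.55 and the secreted glycoprotein Olfm1 by 0.54 (adjusted p = 0.0274 for both), with WT changes of -0.30 and -0.74. The cell adhesion gene Nectin1 differed by 5.75, the chromatin factor Epc1 by 1.26 and the predicted gene Gm2099 by -4.52 (adjusted p = 0.0398 for each). Nectin1 had 0 counts over the KO libraries at 0 h and 25 over those at 9 h, and 21 and 31 over the WT libraries, so its fitted value depends on the prior count and is no bound. Gm2099 had 3 counts over the WT libraries at 0 h and 89 over those at 9 h, a ratio of 24.1 (95% counting interval 7.98 to 119), and 104 and 114 over the KO libraries. Gm8543 differed by 1.18 (adjusted p = 0.0446) and the ribosomal protein gene Rplp1 by -0.32 (adjusted p = 0.0466). Gm42418, which lies in the ribosomal RNA locus of chromosome 17, differed by 0.41 (adjusted p = 0.019), beside a share of that locus that went from 15.66% to 9.76% of counts in WT cells and from 11.40% to 11.45% in KO cells. The part of library makeup in these differences was not tested.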

How the results depend on the processing

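For WT 9 h against 0 h, DESeq2 (1007 genes), its size factors (1294), a stricter filter (1310) and protein-coding genes alone (1163) gave counts within 1.5 times of 1286. With no filter on low counts 743 genes passed for that comparison, 106 for 9 h against 6 h, 832 for 12 h against 9 h (the median of all genes then being 0.15), 741 for KO 9 h against 0 h and 2 for the difference between genotypes. With protein-coding genes only 55 passed for 9 h against 6 h and 8 for the difference between genotypes. In a fit of only the libraries compared 42 passed for 9 h against 6 h, 841 for KO 9 h against 0 h and 4 for the difference between genotypes. Leaving out 1 library at a time gave 882 to 1092 genes for WT 9 h against 0 h, 82 to 158 for 9 h against 6 h, 865 to 1046 for 12 h against 9 h, 969 to 1111 for KO 9 h against 0 h and 3 to 25 for the difference between genotypes. The cause was not tested. Of 288 list members and other named genes called in WT cells, 187 held under every alternative and 209 with each library left out. What depth limits was not tested.

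Libraries of the same number did not deviate together (correlations of -0.011, 0.01 and 0.028 in WT and 0.022, -0.012 and 0.036 in KO cells), so the numbers were not taken as pairs. With the replicate number as a block 1248 genes passed for WT 9 h against 0 h, 152 for 9 h against 6 h, 1240 for 12 h against 9 h, 1289 for KO 9 h against 0 h and 8 for the difference between genotypes. Not every library correlated best with its own number.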

Other observations

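Counts of a few genes, named after their values were seen, were uneven between or within the groups. Gm47305, which overlaps the signal recognition particle RNA gene Rn7s2, had 1, 4063 and 7071 counts in the 3 WT libraries at 9 h and 1 in each at 0 h. The mitochondrial leucyl-tRNA synthetase gene Lars2 had 33, 2102 and 46 counts at 9 h and 51, 30 and 38 at 0 h. Scarna13, a small Cajal body RNA gene that overlaps Mir3069, had 84, 80 and 86 counts at 9 h and 0 in each library at 0 h. Atl1, which encodes a GTPase that shapes the endoplasmic reticulum, had 93, 102 and 67 counts at 0 h and 7, 2 and 9 at 9 h, with a fitted log2 change of -4.14 ± 0.93 (edgeR adjusted p = 0.00465) in WT cells and -0.03 in KO cells. The difference between genotypes in its change did not pass in edgeR's test (adjusted p = 0.689), and the gene overlaps Gm3086 on the same strand.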
